A study of Homo sapiens with 8 samples.

Results

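The histone gene cluster on chromosome 6 was examined in 6 lists of binding peaks for SOX2, OCT4 and NANOG in a pair of human pluripotent cell lines. A peak belonged to the set where it lay on chromosome 6 and 1 of the 2 genes listed beside it was a HIST1H gene whose start site was within 5000 bp. This rule gave 121 of the 201619 peaks in all lists, beside 46 HIST1H genes. The lists named 50 HIST1H genes at any distance, and RefSeq holds 55 coding genes of the cluster: 6 for H1, 12 for H2A, 15 for H2B, 10 for H3 and 12 for H4. The older HIST1H symbols are used here as the lists print them.

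The cluster encodes most of the histones that a dividing cell makes during DNA replication. H2A, H2B, H3 and H4 form the protein core around which DNA is wrapped, and H1 binds the linker DNA between cores. These genes are short, lack introns, yield messages with a stem-loop in place of a poly(A) tail and are transcribed in S phase. H2B promoters are known for an octamer, ATTTGCAT, bound by POU-domain proteins such as OCT1 in cells of many kinds; OCT4 is a POU-domain factor of pluripotent cells and can bind the same letters. SOX2 is an HMG-box factor that often binds next to OCT4, and NANOG is a homeodomain factor.

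NT2/D1, an embryonal carcinoma line, comes from a human germ cell tumour, and H9 is a line of human embryonic stem cells. Chromatin from each line was sonicated, immunoprecipitated for SOX2, OCT4 or NANOG and sequenced, with IgG as background; no other treatment or genotype is given in the labels. There was 1 library per factor and line and therefore no replicate error and no test between libraries. The NT2/D1 OCT4 and NANOG libraries are named here by title and description, although their source names are exchanged. Under the exchanged names the values given for NT2/D1 OCT4 would be those of NANOG.

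The libraries were unequal in ways that bear on peak calls. Unique tags ranged from 54046559 to 77649240 in H9 and from 10218752 to 23160564 in NT2/D1, where the OCT4 library was the smallest. A single IgG library with 58012070 unique tags served all 3 H9 lists. In NT2/D1 the IgG behind SOX2 and NANOG had 2937004 unique tags and the IgG behind OCT4 had 6479071, and the file headers name a different control file for it. MACS ran with a band width of 2000 for H9 but 200 for NT2/D1. Differences between lines, and between NT2/D1 OCT4 and the other NT2/D1 lists, cannot be told apart from these differences in calling.

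The sequences of 8 promoters show what the classes have and lack. Each line gives the 150 bases before the start site from RefSeq on GRCh38.p14, read along the gene, and capitals mark the octamer ATTTGCAT on either strand. The first 4 are H2B and H2A genes with the octamer and a peak in 4 lists. HIST1H2BD and HIST1H4I carried the strongest peaks of several lists without the octamer, HIST1H4E had peaks in 4 lists, and HIST1H1C stands for the linker histones. The windows are chr6:26216689-26216838 on the minus strand for HIST1H2BG, chr6:26251464-26251613 on the plus strand for HIST1H2BH, chr6:26123927-26124076 on the minus strand for HIST1H2BC and chr6:27893186-27893335 on the minus strand for HIST1H2AM. They are chr6:26157971-26158120 on the plus strand for HIST1H2BD, chr6:27139132-27139281 on the plus strand for HIST1H4I, chr6:26204460-26204609 on the plus strand for HIST1H4E and chr6:26056471-26056620 on the minus strand for HIST1H1C.
HIST1H2BG: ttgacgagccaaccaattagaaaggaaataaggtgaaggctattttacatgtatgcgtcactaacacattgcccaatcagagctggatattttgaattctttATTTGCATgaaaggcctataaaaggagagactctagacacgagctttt
HIST1H2BH: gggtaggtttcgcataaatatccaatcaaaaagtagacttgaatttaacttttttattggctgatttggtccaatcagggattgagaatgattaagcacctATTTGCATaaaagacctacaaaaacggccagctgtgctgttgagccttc
HIST1H2BC: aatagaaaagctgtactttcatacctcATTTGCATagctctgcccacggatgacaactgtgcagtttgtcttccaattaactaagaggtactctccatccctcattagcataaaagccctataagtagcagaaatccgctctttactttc
HIST1H2AM: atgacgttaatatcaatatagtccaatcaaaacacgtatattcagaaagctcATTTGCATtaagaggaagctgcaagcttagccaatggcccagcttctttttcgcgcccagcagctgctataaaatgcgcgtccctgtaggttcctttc
HIST1H2BD: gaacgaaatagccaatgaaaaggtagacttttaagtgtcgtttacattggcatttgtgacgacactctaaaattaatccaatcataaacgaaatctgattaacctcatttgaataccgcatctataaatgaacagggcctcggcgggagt
HIST1H4I: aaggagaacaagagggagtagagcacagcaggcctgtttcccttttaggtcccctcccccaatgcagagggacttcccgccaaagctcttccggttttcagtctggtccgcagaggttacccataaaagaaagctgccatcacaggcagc
HIST1H4E: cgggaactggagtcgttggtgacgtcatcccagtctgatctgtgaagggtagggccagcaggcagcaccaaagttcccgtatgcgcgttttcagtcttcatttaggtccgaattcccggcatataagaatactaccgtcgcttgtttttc
HIST1H1C: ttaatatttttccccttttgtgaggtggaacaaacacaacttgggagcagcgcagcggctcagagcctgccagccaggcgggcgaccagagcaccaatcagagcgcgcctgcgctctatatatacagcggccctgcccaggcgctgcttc

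In the 250 bases before the start site, the octamer occurred in 12 of 15 H2B promoters, 9 of 11 H2A promoters and 1 of 8 H3 promoters. None of the 6 H1 and 10 H4 promoters held it, and 1.63% of all 35116 promoters in the table did. Because H2A and H2B genes often lie head to head, these matches came from 14 distinct sites, of which 7 lay before more than 1 gene; the HIST1H2AM octamer is also that of HIST1H2BO, and the match of HIST1H3D, the H3 gene, lies in a window that RefSeq gives to HIST1H2AD too. In HIST1H2BG, HIST1H2BH, HIST1H2BI, HIST1H2BJ, HIST1H2BK and HIST1H2BM the octamer began 45 to 49 bases before the start, just ahead of the TATA region. In HIST1H2BC it began 123 bases before the start. A SOX core, ACAATG on either strand, was in 6 of 50 HIST1H promoters (12%), against 9.29% of all promoters. TATAAA was in 34 of 50 (68%) against 10.7%. CCAAT was in every H1, H2A, H2B and H3 promoter with a window, in 3 of 10 H4 promoters and in 32.0% of all promoters. Each motif was counted on its own, whether or not it overlapped another. HIST1H2AH, HIST1H3I, HIST1H3J, HIST1H4A and HIST1H4C had no window.

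**Figure D1:**
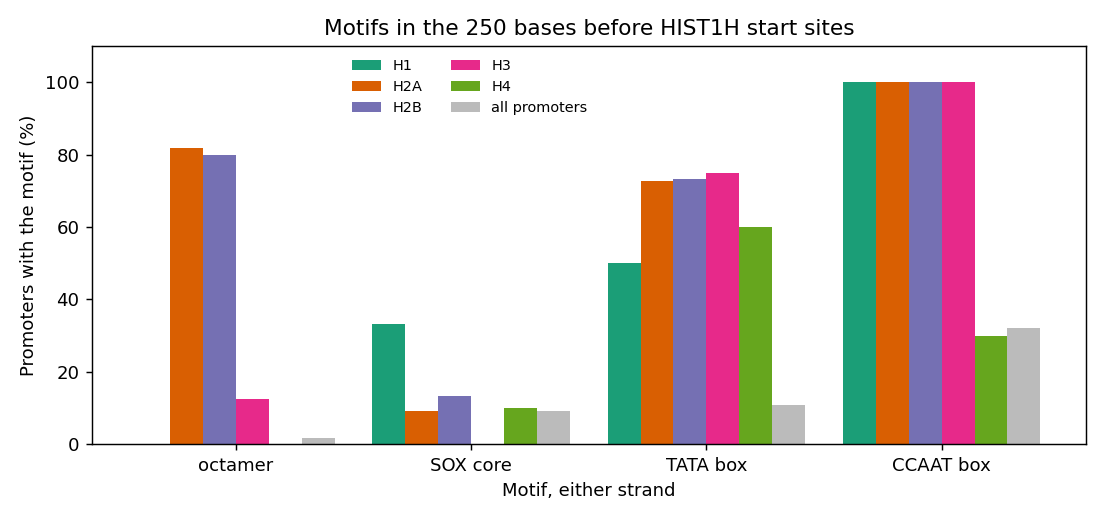
Share of promoters (vertical axis, percent) that hold each motif on either strand in the 250 bases before the start site, by histone class, with all 35116 promoters in grey. The octamer bars stand at 81.8% for H2A and 80% for H2B and are at 0 for H1 and H4, and the CCAAT bar of H4 is at 30%.

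SOX2, OCT4 and NANOG peaks were frequent in the cluster in H9, and in NT2/D1 only the OCT4 list had more than 2 HIST1H peaks. The H9 lists held 30 (SOX2), 33 (OCT4) and 23 (NANOG) HIST1H peaks, and those of NT2/D1 held 2, 31 and 2. A HIST1H peak within 5000 bp was listed for 30 of the 50 named genes with H9 SOX2 (60%), against 9.59% of all 19656 genes that the lists name. The H9 OCT4 list gave 29 genes (58%) against 24.1%, and the H9 NANOG list gave 25 (50%) against 21.5%. In NT2/D1, OCT4 gave 30 genes (60%) against 38.5%. NT2/D1 SOX2 and NANOG gave 2 genes each (4%), below the 17.3% and 18.4% of genes at large. Chromosome 6 as a whole held 760 of the 38423 and 677 of the 34208 peaks in these lists, and 1855 of 46169 in NT2/D1 OCT4. Of the 22 non-histone genes between the HIST1H genes, 1 (4.55%) had a peak in each of these lists. A low share there was thus not particular to the HIST1H genes. The HIST1H counts are a lower bound. A list prints no more than 2 genes beside a peak, and only 1 where the peak covers a start site.

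As a ratio to genes at large, though not always in percentage points, the HIST1H share was higher for peaks that covered a start site. The lists give these a distance of 0. In H9 SOX2 the start site of 27 HIST1H genes (54%) was covered, against 1.46% of all genes, so that 27 of the 287 genes in the whole list with a covered start site were HIST1H genes. In H9 OCT4 it was 18 genes (36%) against 3.38%, and in H9 NANOG 17 genes (34%) against 4.58%. NT2/D1 OCT4 peaks covered 23 start sites (46%) against 10.1%. NT2/D1 SOX2 and NANOG covered 1 each (2%), against 1.0% and 1.15%. Of the 121 HIST1H peaks, 87 covered a start site, 28 lay within 1000 bp of one and 6 lay farther away.

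**Figure D2:**
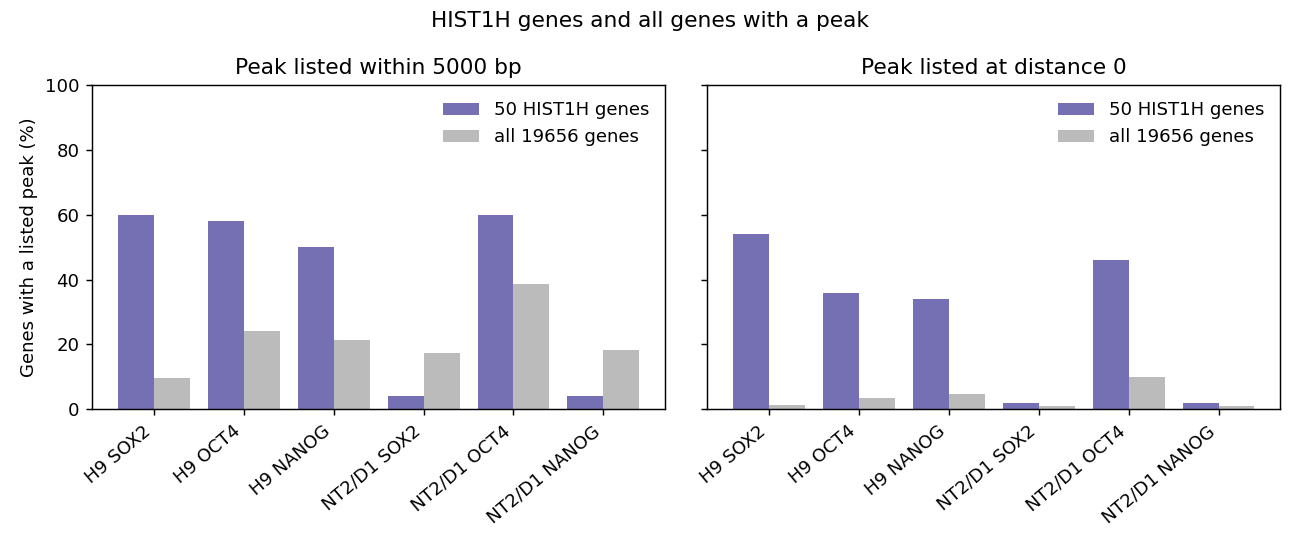
Percent of genes (vertical axis) with a peak listed within 5000 bp (left) and at distance 0 (right) in each of the 6 lists, for the 50 named HIST1H genes and for all 19656 genes. The H9 SOX2 bars differ most, at 60% against 9.59% and at 54% against 1.46%.

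Counts differed between the classes, some of them near those of genes at large. In the 3 H9 lists together, 12 of 15 H2B genes, 8 of 10 H3 genes, 8 of 12 H4 genes, 4 of 6 H1 genes and 5 of 12 H2A genes had a listed peak, 37 of the 50 named genes in all (74%), against 36.2% of all genes. Counted over named genes, as the share of all genes is, H2A had 5 of 10 (50%). This was the lowest share of the 5 classes in H9 and the closest to that of genes at large. Over the NT2/D1 lists the counts were 10 for H2B, 9 for H4, 6 for H2A, 4 for H3 and 2 for H1, 31 named genes in all (62%) against 53.6%. Nearly all of these came from OCT4, and H1, H2A and H3 were near or below the share over all genes. With start sites recovered from the distances, which counts a second gene under the same peak, H2A came to 8 genes in H9 and H3 to 7 in NT2/D1, so these counts depend on how many genes the lists print beside a peak. No gene had a peak in all 6 lists, HIST1H4H had peaks in 5 and 14 genes had peaks in 4. Peaks in all 3 H9 lists, which share their IgG library, were listed for 19 genes (38%) against 5.11% of all genes, and 14 of these also had an NT2/D1 OCT4 peak (28% against 3.52%). An H9 peak and none in NT2/D1 was listed for 15 genes (30%), against 13.3% of all genes. An NT2/D1 OCT4 peak with no listed H9 peak was found at 8 genes (16%), against 20.7%. Of these 8, 4 had a recovered start site within 5000 bp of an H9 peak that the list gives to another gene, and HIST1H2AC shared its merged region with peaks of all 3 H9 lists.

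**Figure D3:**
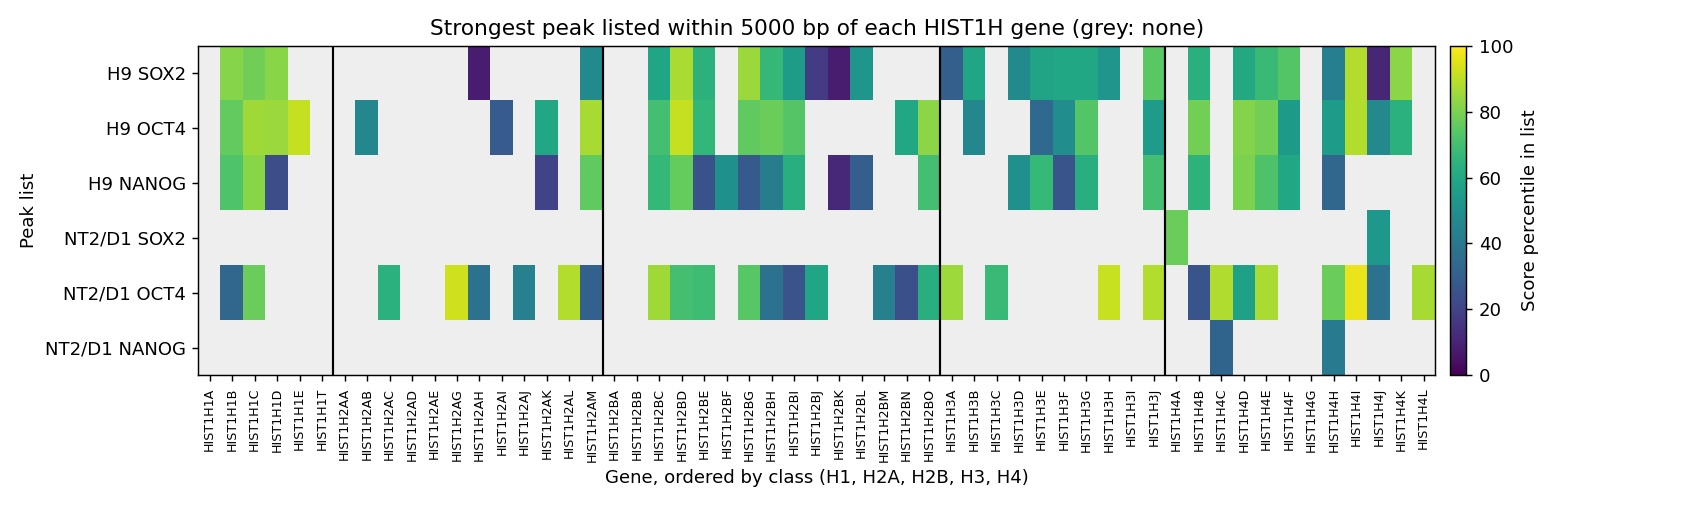
Strongest peak listed within 5000 bp of each HIST1H gene (columns, ordered by class) in each list (rows), coloured by the percentile of its score within the list, with grey where none was listed. Few H2A columns are filled in H9, and the rows of NT2/D1 SOX2 and NANOG are empty outside H4.

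Values in the following are those of the gene's peak with the highest score in a list, unless another is named. H4 genes encode the core histone that pairs with H3, and HIST1H4I had the highest HIST1H score in 2 lists. In H9 SOX2 it had the peak chr6:27106814-27108255 (hg19) with 144 tags and a deposited fold enrichment of 7.13, and its score was at percentile 88.3 of the list. In H9 OCT4 the peak at this gene had 70 tags and a fold of 5.12 (percentile 88.4). In NT2/D1 OCT4 it had 16 tags and a fold of 20.35 (percentile 97.0). All 3 peaks covered the start site, and no peak was listed for HIST1H4I in H9 NANOG, NT2/D1 SOX2 or NT2/D1 NANOG. The 16 tags carry a 95% Poisson interval of 9.15 to 26.0, which covers counting error only. Fold is measured against each list's own background, so the values cannot be compared across lists.

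HIST1H4H was the gene with the most lists. Its H9 SOX2 peak covered the start site with 95 tags and a fold of 3.57, and its NT2/D1 OCT4 peak covered it with 16 tags and a fold of 7.33. Each of the 3 H9 factors had 2 peaks at this gene, 1 over the start site and 1 upstream of it. OCT4 had 62 tags over the start site (fold 3.67) and 37 tags 781 bp away (fold 4.38), and NANOG had 72 tags (fold 2.96) and 47 tags 489 bp away (fold 4.03). The second SOX2 peak had 37 tags 757 bp away (fold 3.73). The NT2/D1 NANOG peak, with 8 tags (fold 7.77), ended 38 bp from the start site.

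HIST1H4B, HIST1H4D and HIST1H4E had peaks in the 3 H9 lists and in NT2/D1 OCT4. For HIST1H4E the tags were 176 in H9 SOX2, 161 in H9 OCT4, 137 in H9 NANOG and 14 in NT2/D1 OCT4, with folds of 2.64, 2.74, 4.39 and 10.12, and every peak covered the start site. The widest of its peaks was chr6:26204067-26206271, from H9 NANOG. HIST1H4D had 85, 86 and 112 tags at its start site in H9 SOX2, OCT4 and NANOG, and 9 tags in NT2/D1 OCT4 in a peak 820 bp away. HIST1H4B had 144, 83 and 74 tags in H9 and 8 in NT2/D1 OCT4, and the H9 NANOG peak ended 23 bp short of the start site.

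The HIST1H peaks of NT2/D1 SOX2 and NANOG were all beside H4 genes and all small. SOX2 had 11 tags over the start site of HIST1H4A (fold 6.25) and 10 tags 272 bp from that of HIST1H4J (fold 9.26). NANOG had 8 tags at HIST1H4C (fold 6.48), over the start site, besides the 8 tags near HIST1H4H. HIST1H4C also had 14 tags in NT2/D1 OCT4 (fold 10.49) and no listed H9 peak. HIST1H4A had no listed H9 peak either, although the H9 SOX2 peak listed for HIST1H3A, chr6:26020544-26021992, overlapped the NT2/D1 SOX2 peak of HIST1H4A. HIST1H4J had low scores in H9, with 158 tags over its start site for SOX2 (percentile 10.7), and for OCT4 109 tags over it (percentile 18.5) and 25 tags 1347 bp away (percentile 47.2). Its NT2/D1 OCT4 peak had 6 tags 969 bp away.

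H2B genes, which encode the partner of H2A, were the class with most genes. HIST1H2BD was among the 3 strongest HIST1H peaks in each H9 list. Its H9 SOX2 peak, chr6:26156985-26159763, was 2779 bp wide with 240 tags (95% Poisson interval 211 to 272), a fold of 4.27 and a score percentile of 87.3. The H9 OCT4 peak held 128 tags (fold 3.83, percentile 91.0) and lay between HIST1H2BD, 136 bp away, and the H1 gene HIST1H1E, 397 bp away. A second H9 OCT4 peak covered the HIST1H2BD start site with 57 tags (fold 3.57). H9 NANOG had 115 tags over the HIST1H2BD start site (fold 5.14) and NT2/D1 OCT4 had 12 (fold 7.69).

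HIST1H2BG, HIST1H2BC and HIST1H2BH had peaks over the start site in the same 4 lists. HIST1H2BG had 211 tags in H9 SOX2, 121 in H9 OCT4, 97 in H9 NANOG and 16 in NT2/D1 OCT4, with score percentiles of 85.1, 75.6, 28.4 and 74.1. HIST1H2BC had 93, 129, 123 and 20 tags, and HIST1H2BH had 110, 60, 43 and 6. HIST1H2BE had 113 and 65 tags over the start site in H9 SOX2 and OCT4, whereas the H9 NANOG peak (39 tags) lay 22 bp away. NT2/D1 OCT4 had 8 tags 284 bp away and a second peak over the start site with 7 tags. The order of these genes by tags was thus not the same in every list.

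HIST1H2BI differed between the lines in where its peaks lay. The H9 peaks of highest score, with 53 tags for SOX2, 39 for OCT4 and 47 for NANOG, lay 3326, 3570 and 3378 bp from the start site. In NT2/D1 OCT4 the peak chr6:26273052-26273387 covered it with 9 tags. The same 3 H9 peaks are listed for the H3 gene HIST1H3G, 1735 (SOX2), 1979 (OCT4) and 1787 bp (NANOG) from its start. A second H9 OCT4 peak, with 64 tags, lay 209 bp from the HIST1H3G start. Measured from the nearer HIST1H gene, the peaks at 1979 and 1787 bp were the members closest to the distance limit, and the first HIST1H peaks beyond 5000 bp were at 5485 bp (HIST1H2AL, H9 SOX2, 22 tags), 5783 bp (HIST1H2AA, NT2/D1 OCT4, 5 tags) and 6474 bp (HIST1H3G, H9 NANOG, 31 tags).

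H2A genes had listed peaks in few lists, and 6 of 12 had a listed peak in 1 list only. At head-to-head pairs a peak over both start sites can be listed for the H2B partner alone. This was so for HIST1H2AI in H9 SOX2 and NANOG, where the peak is listed for HIST1H2BL. With recovered start sites 8 H2A genes had a peak in H9, as did 8 H4 genes. HIST1H2AM was the exception with 4 lists. Its peaks covered the start site with 105 tags in H9 SOX2 (fold 3), 116 in H9 OCT4 (fold 5.54), 176 in H9 NANOG (fold 3.77) and 11 in NT2/D1 OCT4 (fold 6.87). HIST1H2AG had 14 tags in NT2/D1 OCT4 over its start site, with a fold of 11.31 and the second highest HIST1H score of that list (percentile 93.0). HIST1H2AH had 89 tags in H9 SOX2, 746 bp away and at a score percentile of 8.19, and 10 tags over its start site in NT2/D1 OCT4. HIST1H2AK had 47 tags over its start site in H9 NANOG and 109 tags 168 bp away in H9 OCT4.

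H3 genes were covered most often by SOX2 in H9. A SOX2 peak lay over the start site of 8 of 9 named H3 genes, while H9 OCT4 covered 1, H9 NANOG covered 2 and NT2/D1 OCT4 covered 3. HIST1H3J had 81 tags over its start site in H9 SOX2 (fold 3.96) and 12 in NT2/D1 OCT4 (fold 8.45), with 32 tags 226 bp away in H9 OCT4 and 74 tags 148 bp away in H9 NANOG. HIST1H3E had 134 tags over its start site in H9 SOX2, 115 over it in H9 NANOG and 84 at 199 bp in H9 OCT4. HIST1H3G had 117 tags over its start site in H9 SOX2. HIST1H3H had 96 tags there in H9 SOX2, and 14 in NT2/D1 OCT4 with a fold of 12.93.

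H1 genes encode the linker histones, and HIST1H1C and HIST1H1B had peaks in 4 lists. HIST1H1C had 156 tags in H9 SOX2, 76 in H9 OCT4, 128 in H9 NANOG and 12 in NT2/D1 OCT4, all over the start site, and a second H9 OCT4 peak with 47 tags 879 bp away. Its H9 NANOG peak, chr6:26054961-26056751, had the highest score of the HIST1H peaks in that list (percentile 82.3). HIST1H1B had 134, 132 and 15 tags over its start site in H9 SOX2, H9 NANOG and NT2/D1 OCT4, and in H9 OCT4 67 tags over it and 61 tags 688 bp away. HIST1H1D had 198 tags in H9 SOX2 and 100 in H9 NANOG over the start site, 98 tags 478 bp away in H9 OCT4 and no peak in NT2/D1.

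No list named HIST1H1T, HIST1H2AD, HIST1H2AE, HIST1H3I or HIST1H4G. HIST1H1A, HIST1H2AA, HIST1H2BA and HIST1H2BB were named but had no listed peak within 5000 bp. Such a gene can still lie beside a peak listed for another. HIST1H2AD shares its promoter window with HIST1H3D, whose start site an H9 SOX2 peak covered. HIST1H2AE shares an octamer with HIST1H2BG, which had peaks in 4 lists. The recovered start site of HIST1H1A lay within 5000 bp of peaks in H9 SOX2, NT2/D1 SOX2 and NT2/D1 OCT4. HIST1H1T, HIST1H2AA and HIST1H2BA are known as testis histone genes. The pair HIST1H2AA and HIST1H2BA stands apart from the others on the chromosome, and the 10.3 kb around it held no peak of any kind in any list. The stretch from HIST1H1A to HIST1H4H, 278 kb with its margins, held 20, 21 and 17 HIST1H peaks in H9 SOX2, OCT4 and NANOG and 16 in NT2/D1 OCT4. The 24.3 kb from HIST1H2BJ to HIST1H2AH held 3, 2, 1 and 4, and the 95.5 kb from HIST1H2BL to HIST1H2BO held 7, 10, 5 and 11.

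HIST1H peaks in H9 were wide and had many tags but a modest fold. In H9 SOX2 the median HIST1H peak was 1500 bp wide, against 633 bp for all peaks and 772 bp for peaks over any start site. It held 113 tags against 46 and 58, and its fold was 3.34 against 5.19 and 4.37. In H9 OCT4 the median width was 807 bp against 408 and 532 bp, with 70 tags against 32 and 44 and a fold of 3.68 against 4.52 and 4.22. In H9 NANOG it was 1575 bp against 705 and 868 bp, with 97 tags against 40 and 48 and a fold of 3.98 against 5.11 and 4.13. The median HIST1H peak was thus at width percentiles 97.5, 93.0 and 96.3 of the H9 lists and at fold percentiles 6.62, 17.3 and 20.4.

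The NT2/D1 OCT4 peaks did not have this shape. The median HIST1H peak there was 336 bp wide, between the 272 bp of all peaks and the 396 bp of those over a start site. It held 11 tags, against 7 and 12, and its fold was 8.45, against 8.71 and 8.29. In H9 SOX2 the share of HIST1H peaks with an FDR of at most 5% was 20 of 30 (66.7%). It was 46.2% for all peaks of that list and 40.6% for those over a start site. H9 OCT4 had 18 of 33 (54.5%) against 39.0% and 43.9%, and H9 NANOG had 22 of 23 (95.7%) against 80.0% and 82.2%. NT2/D1 OCT4 had 11 of 31 (35.5%), above the 22.5% of all its peaks and below the 45.5% of those over a start site. The shares over all peaks thus differed between the lists too. Coding regions of many core histone genes of a class are similar, and the headers mark only the NT2/D1 read files as unique. Tags in the wide H9 peaks at such genes may be shared between copies, which was not tested.

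**Figure D4:**
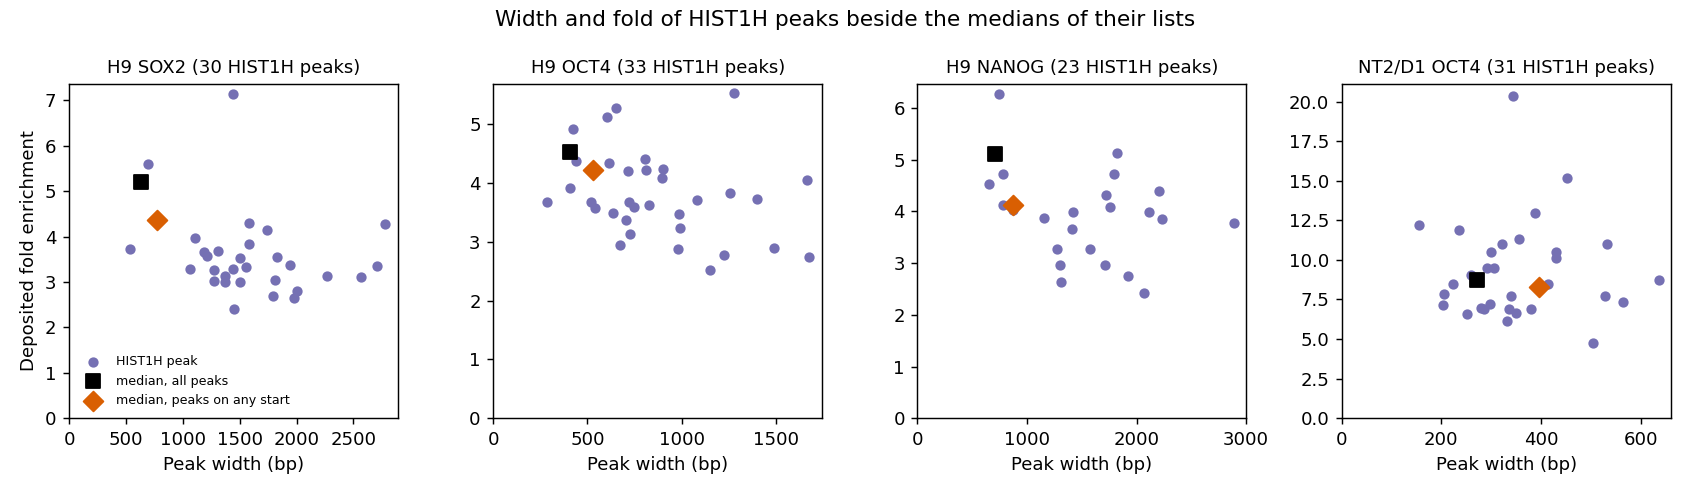
Width (horizontal axis, bp) and deposited fold enrichment (vertical axis, linear) of each HIST1H peak in the 4 lists with more than 2 of them, with the medians of all peaks (square) and of peaks over any start site (diamond). In the H9 panels most points lie to the right of both medians, and in H9 SOX2 most lie below both; in NT2/D1 OCT4 they scatter around them.

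The typical summit lay downstream of the start site in H9 and close to it in NT2/D1 OCT4. Start sites could be recovered from the listed distances for 27, 31 and 22 peaks of H9 SOX2, OCT4 and NANOG. The median summit was 190, 271 and 214 bp into the gene. The median over 27 NT2/D1 OCT4 peaks was 18 bp into the gene, with quartiles 5.5 bp before the start site and 128 bp after it. A start site recovered from a single distance had to lie within the peaks listed over it, which favours genes with a peak there. Band width differed between the lines, as given above, and its part in these distances was not tested.

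**Figure D5:**
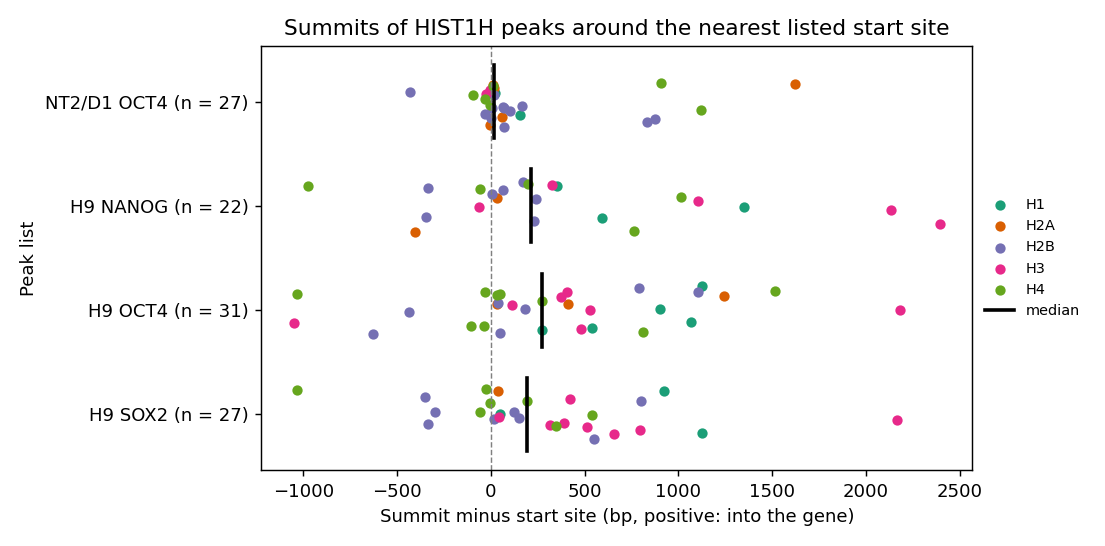
Position of the summit of each HIST1H peak relative to the recovered start site (horizontal axis, bp, positive into the gene), coloured by histone class, with the median as a black bar. The medians are at 190, 271 and 214 bp in H9 SOX2, OCT4 and NANOG and at 18 bp in NT2/D1 OCT4.

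Head-to-head genes shared peaks in H9. Of 8 divergent pairs with recovered start sites, 239 to 346 bp apart, both start sites lay in 1 peak in 4 pairs in H9 SOX2, 4 in H9 NANOG and 1 in H9 OCT4. No pair was covered by 1 NT2/D1 OCT4 peak, although 4 pairs had a peak over at least 1 start site. A peak must be wider than the gap to cover both, and the median HIST1H peak was 336 bp wide there. In H9 SOX2, OCT4 and NANOG it was 1500, 807 and 1575 bp wide, so this difference cannot be told apart from peak width. HIST1H2AM and HIST1H2BO were covered together in all 3 H9 lists. In NT2/D1 OCT4 they had a peak each, chr6:27860794-27861078 with 11 tags over HIST1H2AM and chr6:27861133-27861336 with 9 tags over HIST1H2BO. HIST1H2BK and HIST1H2AH were covered by 1 H9 NANOG peak, and HIST1H2AH alone by an NT2/D1 OCT4 peak.

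Peaks of all lists merged into 40 regions, and 20 of these held peaks from both lines. The lines used different IgG libraries. Of the 33 regions with an H9 peak, 20 (60.6%) were shared, and of the 27 with an NT2/D1 OCT4 peak, 20 (74.1%) had an H9 peak. Seen from the 31 NT2/D1 OCT4 peaks, 20 (64.5%) overlapped an H9 SOX2 peak, against 13.99% of all NT2/D1 OCT4 peaks and 7.16% of those over a start site. For H9 OCT4 it was 15 (48.4%) against 17.1% and 17.8%, and for H9 NANOG 17 (54.8%) against 18.2% and 17.4%. The H9 HIST1H peaks were wide for their lists, as given above, and a wide peak is met more easily. The part of width in these shares was not tested. In the other direction, NT2/D1 OCT4 peaks met 12 of the 33 H9 OCT4 peaks (36.4%), 26.1% of all peaks in that H9 list and 52.7% of those over a start site. For H9 SOX2 it was 17 of 30 (56.7%) against 32.1% and 59.4%, and for H9 NANOG 14 of 23 (60.9%) against 23.8% and 47.6%. Within H9, 20 regions held peaks of all 3 factors, whose lists share their IgG library. Of the H9 SOX2 HIST1H peaks, 73.3% met an H9 NANOG peak. It was 65.0% for all peaks of that list and 65.3% for those over a start site. With H9 OCT4 peaks it was 83.3%, against 52.3% and 67.0%. H9 SOX2 peaks met 90.9% of the H9 OCT4 HIST1H peaks, against 35.2% and 24.9%. They met 95.7% of the H9 NANOG HIST1H peaks, against 37.0% and 24.5%. With summits within 200 bp in place of overlap, 15 regions held both lines and 7 held all 3 H9 factors. At a reciprocal overlap of 50%, 4 held both lines and 15 held all 3 H9 factors; this rule is hard to meet where peaks differ in width as much as those of the lines do.

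Counted by gene, listed OCT4 peaks were no more frequent with the octamer than without it in H9, and the shares were closer in NT2/D1. In H9 OCT4, 8 of 22 genes with the octamer had a listed peak (36.4%), as did 20 of 28 without it (71.4%). With recovered start sites these were 10 and 21. Genes are not sites here, since the matches came from 14 sites, of which 7 lay before more than 1 gene. A peak over a start site is listed for 1 gene only. HIST1H2AC and HIST1H2AE counted as genes without an H9 OCT4 peak and had no recovered start site. They share their octamers with HIST1H2BC and HIST1H2BG, which had such a peak. A count by site was not made. In NT2/D1 OCT4 the counts were 13 of 22 (59.1%) and 14 of 28 (50%), or 15 and 21 with recovered start sites. Among H2B genes, 6 of 12 with the octamer had an H9 OCT4 peak and 8 of 12 an NT2/D1 OCT4 peak. Of the 3 H2B genes without it, 2 had a peak in each of these lists. H4 genes had OCT4 peaks at 8 of 11 named genes in both lines. None of the 10 H4 promoters with a window held the octamer. HIST1H4A and HIST1H4C, the latter with an NT2/D1 OCT4 peak, had no window. The octamer goes with the H2A and H2B classes, so the 2 cannot be told apart.

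Other genes gave a measure of the neighbourhood and of the family. The lists named 22 genes that are not histone genes between the first and last HIST1H start sites. Of these, 5, 6 and 7 had a peak within 5000 bp in H9 SOX2, OCT4 and NANOG and 1, 6 and 1 in NT2/D1 SOX2, OCT4 and NANOG. The shares were 22.7%, 27.3% and 31.8% in H9, against 9.59%, 24.1% and 21.5% of all genes. In NT2/D1 they were 4.55%, 27.3% and 4.55%, against 17.3%, 38.5% and 18.4%. Among 16 replication-dependent histone genes of the smaller clusters on other chromosomes, those with a peak numbered 9, 9 and 8 in the H9 lists, against 6, 4 and 5 in the NT2/D1 lists. Their shares were 56.25%, 56.25% and 50% in H9, above those of all genes, and 25% in NT2/D1 OCT4, below that of all genes. In NT2/D1 SOX2 and NANOG these genes thus had peaks at 37.5% and 31.2%, where the HIST1H genes had 4%. Chromosome 6 as a whole held 760 of the 38423 and 677 of the 34208 peaks in these lists. A difference between clusters thus cannot be told apart from one between chromosomes. The replication-independent histone genes had peaks at 3, 2 and 1 of 13 in H9 (23.1%, 15.4% and 7.69%, against 9.59%, 24.1% and 21.5% of all genes). In NT2/D1 they had peaks at 5, 5 and 2 (38.5%, 38.5% and 15.4%, against 17.3%, 38.5% and 18.4%). The NT2/D1 OCT4 and NANOG shares were thus near those of all genes. H2AFY, which encodes macroH2A, was among them in every list of both lines.

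Regulators of histone gene expression had shares near those of all genes in H9. Of 13 such genes, 4 had an OCT4 peak (30.8% against 24.1% of all genes), 2 a NANOG peak (15.4% against 21.5%) and none a SOX2 peak (against 9.59%). NT2/D1 OCT4 had peaks at 9 of 13 (69.2% against 38.5%), and these included NPAT, the S-phase coactivator of histone genes, SLBP, which binds the stem-loop of their messages, and CCNE1 and CCNE2, the E-type cyclins. POU2F1, which encodes OCT1, had an OCT4 peak in both lines and a NANOG peak in H9. NT2/D1 SOX2 and NANOG each had peaks at 2 (15.4%, against 17.3% and 18.4%).

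The strongest peak that named a HIST1H gene at any distance was not a member in any list. It lay in the gap before HIST1H2BL, 36271 to 36877 bp from its start site, with folds of 22.34, 12.41 and 47.34 in H9 SOX2, OCT4 and NANOG and 18.74, 19.11 and 19.43 in NT2/D1 SOX2, OCT4 and NANOG. In H9 NANOG it was chr6:27737884-27739438 with 286 tags. All 6 lists thus had a peak at this place, and at each of the HIST1H genes at most 5 did.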

How the data were processed

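Peaks were called with MACS on each of 6 factor libraries against IgG with a p-value cutoff of 0.001, on SOLiD reads with a tag size of 50, per the file headers. Per the submitters' processing notes, coordinates are on hg19. For the aligner and the MACS version, nothing is given in the sources used here. The 2 IgG samples were not analysed on their own. Deposited tag counts are whole reads per peak without normalization. The fold enrichment, a deposited ratio, is relative to the background MACS estimates, and the deposited FDR is in percent. The name of the deposited score column was overwritten, and it was read as the −log10 of the p-value on the scale MACS writes, since its lowest value was 30. NT2/D1 OCT4 was called with a model fold of 5 and the others with 3. In NT2/D1 SOX2 and NANOG, FDR rises with score, so an FDR limit removes strong peaks. These values are the authors' and were used only within a list.

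Peaks were assigned by the 2 genes and distances that the lists print; distance runs from the nearer peak edge to the start site. Start sites were recovered from distances where at least 2 peaks gave the same position, or where 1 position lay within every peak at distance 0, after a test on simulated data. Symbols were matched to the RefSeq table of GRCh38.p14, which was used for names and promoter sequences only. Regions were merged at any overlap. Python 3.11.15, pandas 2.3.3, numpy 2.4.6 and scipy 1.17.1 were used. Poisson intervals are exact and cover counting error only.

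Named with values are genes with peaks in at least 4 lists, genes of each list's 3 top HIST1H peaks by score, and at most 3 genes per class with the most lists. Those with no peak are named alone. Other genes were named after their values were seen. The members and lists were chosen with earlier results of these data known. Alternatives were limits of 1000 and 10000 bp, the nearer gene only, an FDR of at most 5%, the upper 50% by score, lists of equal length (19349 peaks), no peaks of the widest 1%, exchanged NT2/D1 OCT4 and NANOG names, and stricter overlap.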

Additional observations from a re-analysis of the deposited data

How the results depend on the processing

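Of 154 values under 12 alternative settings, 119 stayed within 1.5 times the main count and 35 did not. A limit of 1000 bp, the nearer gene only, and leaving out the widest 1% of peaks moved no count beyond that. The counts of H9 SOX2 genes, of H1, H2B, H3 and H4 genes in H9 and of H4 genes in NT2/D1 stayed within it under every setting run. Some reached its edge. The FDR limit took H9 SOX2 genes from 30 to 20, and a distance of 0 took H2B genes in H9 from 12 to 8. The equal length of 19349 peaks is that of the H9 SOX2 list, so that setting could not move its count. At 10000 bp NT2/D1 SOX2 had 5 genes and NANOG 4. An FDR of at most 5% left 18 genes in H9 OCT4 and 11 in NT2/D1 OCT4, 2 H2A genes in H9, and 0 H1, 2 H2A and 1 H2B genes in NT2/D1. It left 12 regions with all 3 H9 lists and 5 with both lines. The upper 50% by score left 16 genes in H9 NANOG and 0 in NT2/D1 NANOG, 2 H2A genes in H9, 1 H1, 3 H2A and 6 H2B genes in NT2/D1, and 10 and 12 of these regions. Lists of equal length gave 16 genes in H9 NANOG, 19 in NT2/D1 OCT4 and 0 in NT2/D1 NANOG, and 1 H1, 3 H2A and 6 H2B genes in NT2/D1. With the NT2/D1 OCT4 and NANOG names exchanged, OCT4 had 2 genes and NANOG 30. Summits within 200 bp left 7 regions with all 3 H9 lists, and a reciprocal overlap of 50% left 4 with both lines. Of the settings chosen after seeing the data, recovered start sites gave 4 genes in NT2/D1 SOX2, 8 H2A genes in H9 and 7 H3 genes in NT2/D1. Distance 0 gave 18 genes in H9 OCT4, 1 each in NT2/D1 SOX2 and NANOG, and 3 H2A genes in H9. Fewer peaks entered under the FDR, score and length limits by construction. No paired analysis was possible because each factor and line has 1 library and no test was run. The small tag counts of NT2/D1 limit what its lists can show, and a gene without a listed peak there is not shown to lack binding.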
